A study of Mus musculus with 14 samples.

Results

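The genes described here are Rnase2a, an eosinophil-associated ribonuclease also written Ear11, the eotaxin receptor gene Ccr3, the mast cell protease genes Cma1, Mcpt4, Cpa3 and Tpsb2, and the receptor genes Kit and Fcer1a. All 8 genes were on the array. They had 10 probe sets of 22690, with 2 each for Tpsb2 and Kit and 1 for each of the others. They were chosen by the signals measured in these same 14 samples, since earlier results of these group comparisons were known when the genes were listed. Their levels in the groups and the differences between groups are therefore descriptions, given with no p-value and no call.

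RNA of epididymal fat, a white fat depot, was measured on single-channel Affymetrix arrays in 14 mice of the ICR strain, all labelled male and 3 weeks old. The UC group (n = 5) was undernourished in utero, under a 50% restriction of food, and had ample chow during suckling. The UU group (n = 4), also under a 50% restriction of food, was undernourished in utero and again while suckling. The CC group (n = 5) had chow ad libitum through both periods. The values are MAS5 signals, a brightness per probe set on a linear scale, and every array had been scaled to a trimmed mean signal of 1500.45 to 1500.57. Litter is not labelled, so p-values measure only the spread between these samples, which may be partly shared or technical, and the number of arrays limits the precision.

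The fat identity of the samples was borne out by Fabp4 and Lpl, a fatty acid carrier and a lipase of adipocytes, whose mean signals over all arrays were 117581.1 and 99929.8. Some libraries stood apart. UC replicates 2 and 5 and CC replicates 2 and 4 had Gpx5 signals, a mark of epididymal epithelium, of 409.6 to 1155.1, against 5710.8 to 69623.9 in the other 10. UC replicate 5 and CC replicate 2, labelled male, had signals of 9136.8 and 14479.3 for Xist, the RNA of the inactive X chromosome, and of 7.9 and 58.6 for the Y-linked Eif2s3y. UC replicates 1 and 4 and UU replicate 3 had log2 ratios of 3' over 5' control signal, a measure that rises as RNA degrades, of 1.60 to 2.11. Liver transcripts summed to 63941 in UC replicate 2 and to at most 9888 elsewhere, and muscle transcripts to 16459 and 15736 in CC replicates 2 and 5 and to at most 2352 elsewhere. Beside each described gene, its differences are also given without the low-epididymal, Xist or high-ratio samples where they moved by over 0.4 log2 units. Of the differences without UC replicate 2, CC replicate 2 or CC replicate 5, each left out alone, those of 1 Kit probe set moved that far.

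Eosinophils are white blood cells of allergy and parasite defence that also reside in lean white fat, where interleukins 4 and 13 from them help keep macrophages in an alternatively activated state. CCR3 draws them into tissue along eotaxins, and their granules hold ribonucleases, a peroxidase and basic proteins. Mast cells mature in tissue under KIT ligand, store chymases, tryptases and carboxypeptidase A3 with histamine in their granules, and release them when IgE bound to its high-affinity receptor is crosslinked. In mice the Ear ribonucleases form a large family of similar genes, and Rnase2a is also known to be expressed by alternatively activated macrophages.

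GATA factors act in both lineages, so the 250 bases before the transcription start were searched for the letters GATAA and, on the other strand, TTATC. The sequences are from RefSeq on build GRCm38.p6, in which 7 of the 8 genes matched an entry. Of these 7 genes, 6 held a match (Rnase2a, Ccr3, Cma1, Mcpt4, Cpa3 and Fcer1a), while neither of the 2 Kit starts did. Of all 32851 promoter windows of this length, 22.6% held one. A match is a description of the letters. The sequences given are those of Rnase2a, on which the group differences turn, its near copy Rnase2b, and the mast cell genes Cpa3 and Mcpt4, each 5' to 3' with the match in capitals.
Rnase2a, chr14:51256113-51256362, minus strand: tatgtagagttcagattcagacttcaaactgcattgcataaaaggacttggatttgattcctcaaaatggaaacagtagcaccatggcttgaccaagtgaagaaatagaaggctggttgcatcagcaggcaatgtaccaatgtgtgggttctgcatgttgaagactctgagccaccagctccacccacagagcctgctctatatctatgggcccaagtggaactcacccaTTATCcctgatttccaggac
Rnase2b, chr14:51162010-51162259, plus strand: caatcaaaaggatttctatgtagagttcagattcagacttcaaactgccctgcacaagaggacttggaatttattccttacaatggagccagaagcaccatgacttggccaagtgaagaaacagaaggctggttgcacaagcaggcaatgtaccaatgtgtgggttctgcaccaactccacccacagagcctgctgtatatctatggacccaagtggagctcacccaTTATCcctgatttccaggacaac
Cpa3, chr3:20242182-20242431, minus strand: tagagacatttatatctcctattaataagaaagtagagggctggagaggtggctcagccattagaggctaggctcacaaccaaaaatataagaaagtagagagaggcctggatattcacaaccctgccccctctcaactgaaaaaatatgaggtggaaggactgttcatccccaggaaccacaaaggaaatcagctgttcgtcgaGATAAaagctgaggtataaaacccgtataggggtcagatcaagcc
Mcpt4, chr14:56062311-56062560, minus strand: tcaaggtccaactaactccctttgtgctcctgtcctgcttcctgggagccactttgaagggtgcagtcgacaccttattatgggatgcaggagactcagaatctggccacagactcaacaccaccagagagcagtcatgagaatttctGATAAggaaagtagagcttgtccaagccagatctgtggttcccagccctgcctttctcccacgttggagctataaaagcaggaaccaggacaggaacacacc
The windows of Rnase2a and Rnase2b shared 211 of 231 aligned bases (91.3%). Their TTATC lay 20 bases before the start in Rnase2a and 23 bases in Rnase2b, while GATAA lay 45 bases before the start in Cpa3 and 102 in Mcpt4.

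Rnase2a was the bright gene of the set, and its level differed between all 3 groups without overlap. Its signals were 3905.4, 5009.6, 3594.4, 4735.3 and 17038.4 in UC replicates 1 to 5. In UU replicates 1 to 4 they were 298.5, 1869.3, 541.5 and 1841.8, and in CC replicates 1 to 5 they were 2736.6, 2716.5, 3239.1, 3456.4 and 2196.5. Every UC sample lay above every CC sample, and every CC sample above every UU sample, although UC replicate 3 exceeded CC replicate 4 by little. Group means were 6856.6 ± 5721.3 in UC, 1137.8 ± 834.8 in UU and 2869.0 ± 493.7 in CC (SD). In bulk tissue, fewer cells of a type and less RNA per cell cannot be told apart.

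**Figure D1:**
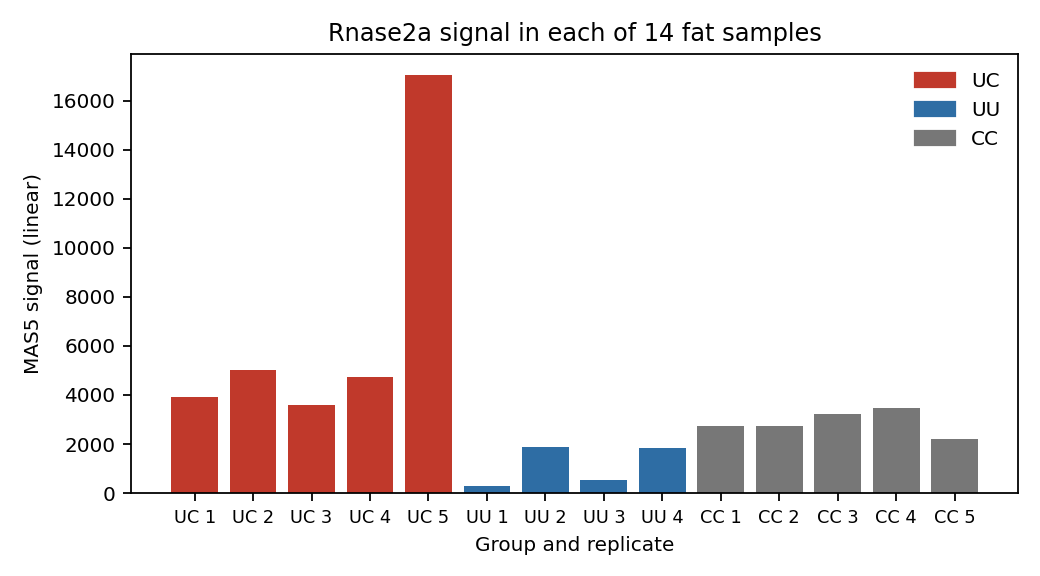
Rnase2a signal (MAS5, linear, vertical axis from 0) in each sample, with 1 bar per array in the groups UC, UU and CC. The 5 UC samples reach 3594.4 to 17038.4, the 4 UU samples 298.5 to 1869.3 and the 5 CC samples 2196.5 to 3456.4.

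On the log2(signal + 32) scale Rnase2a was 0.98 ± 0.47 higher in UC than in CC (limma SE), a 1.98-fold difference. UU minus CC was -1.66 ± 0.49, which is 3.16-fold lower in UU, and 2.64 ± 0.49 higher in UC than in UU, or 6.25-fold. UC replicate 5, one of the samples with Xist signal and few epididymal transcripts, carried much of the first difference. Without that sample UC minus CC was 0.59, without both samples with Xist signal 0.57, and without the 4 samples low in epididymal markers 0.58. UC minus UU stayed at 2.16 or more whichever single sample was left out, and was 2.17 without the 4 samples low in epididymal markers. Without the 3 samples of highest 3'/5' ratio the differences were 1.24 for UC minus CC, -1.44 for UU minus CC and 2.68 for UC minus UU.

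These differences can be set beside those of all 7436 genes that remained after the dimmest 40% were left out. Groups that do not overlap were found in 0.995% of genes for higher in UC than in CC, in 3.63% for lower in UU than in CC and in 3.54% for higher in UC than in UU. The order UC above CC above UU with no overlap was met by 2 genes (0.0269%), Rnase2a and Pfkl. Since Rnase2a was listed with these comparisons known, nothing is read from its place among them. At a Benjamini-Hochberg adjusted p under 0.05, limma called 63 genes (0.847%) in UC minus UU and 0 (0%) in UC minus CC and in UU minus CC, where 654 and 1213 genes were at an unadjusted p under 0.05.

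The eosinophil receptor gene Ccr3, which binds eotaxins, was dim, with a mean signal of 162.6 over all arrays, above only 15.5% of probe sets. Its signals were 342.2, 180.6, 140.7, 17.6 and 515.4 in UC, 40.7, 60.6, 356.9 and 183.5 in UU, and 17.8, 29.0, 19.4, 307.9 and 63.5 in CC. The groups overlapped from end to end, since UC held a sample at the CC minimum and CC replicate 4 came close to the upper UC values. The log2 differences were 1.24 ± 0.67 for UC minus CC, 0.82 ± 0.71 for UU minus CC and 0.42 ± 0.71 for UC minus UU. Without the samples of highest 3'/5' ratio UC minus UU was 1.26 and UU minus CC 0.38, and without those low in epididymal markers they were -0.06 and 1.3. Without the samples with Xist signal UC minus CC was 0.76.

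Of the mast cell proteases, Cma1 and Cpa3 had the higher signals, near the middle of all probe sets, and their levels overlapped between the groups. Cma1, the gene of mast cell protease 5, had signals of 595.4, 705.3, 588.9, 615.7 and 1182.4 in UC, 480.6, 637.8, 263.9 and 856.1 in UU, and 378.6, 940.5, 828.4, 789.3 and 1137.6 in CC. Its lowest sample was UU replicate 3, and UC minus CC was -0.11 ± 0.33, UU minus CC -0.55 ± 0.35 and UC minus UU 0.44 ± 0.35. Cpa3, the gene of mast cell carboxypeptidase A3, had signals of 793.4, 510.8, 430.8, 558.7 and 960.9 in UC, 759.7, 533.0, 428.4 and 797.5 in UU, and 527.5, 532.7, 532.7, 775.0 and 559.6 in CC. The CC samples other than replicate 4 lay close together inside the range of UC, and the Cpa3 differences were 0.10 ± 0.25, 0.07 ± 0.27 and 0.03 ± 0.27 in the same order.

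Mcpt4 and Tpsb2 were dimmer. Mcpt4, a chymase gene of connective tissue mast cells, had signals of 22.8, 27.2, 216.6, 126.9 and 24.5 in UC, 187.3, 235.1, 50.8 and 113.6 in UU, and 105.6, 172.6, 43.7, 306.1 and 154.3 in CC. UC replicates 1, 2 and 5 were at the low end and UC replicate 3 was above most others, and UC minus CC was -0.84 ± 0.51, UU minus CC -0.04 ± 0.54 and UC minus UU -0.80 ± 0.54. In the same order the values were 0.05, 0.39 and -0.33 when the 4 samples low in epididymal markers were left out. Tpsb2, the gene of mast cell protease 6, a tryptase, was read by 2 probe sets. The brighter gave 298.9, 168.5, 236.8, 306.7 and 448.6 in UC, 69.0, 436.7, 316.8 and 246.1 in UU, and 16.8, 259.5, 230.7, 290.6 and 151.9 in CC, with overlap between the groups. Its differences were 0.74 ± 0.51 for UC minus CC, 0.49 ± 0.55 for UU minus CC and 0.26 ± 0.55 for UC minus UU. Without CC replicate 1, its lowest sample, UC minus CC was 0.26, and without the samples low in epididymal markers UC minus CC was 1.23 and UU minus CC 0.97. The dimmer probe set ran from 20.8 to 396.2 in UC, from 33.6 to 283.5 in UU and from 23.9 to 150.0 in CC, and its differences were -0.04 ± 0.58 for UC minus CC, -0.03 ± 0.61 for UU minus CC and -0.01 ± 0.61 for UC minus UU. These depended on which samples entered. UC minus CC was -1.25 and UC minus UU -0.86 without the samples low in epididymal markers, -0.48 and -0.47 without those with Xist signal, and UC minus CC was 0.42 without those of highest 3'/5' ratio. Over the 14 arrays, deviations of the 2 Tpsb2 probe sets from their group means had a Pearson r of 0.25 (Spearman 0.26), given as a description.

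Kit, the receptor of KIT ligand on mast cells and on blood progenitors, germ cells and melanocytes, also had 2 probe sets, and they too went different ways from sample to sample (Pearson r 0.07, Spearman 0.05 over 14 arrays). The brighter had signals of 1466.6, 769.7, 2028.5, 1089.8 and 638.0 in UC, 1844.8, 1522.1, 1264.8 and 1338.4 in UU, and 1199.1, 1068.9, 1690.3, 835.8 and 1117.3 in CC. UC held its highest and its lowest sample, and the differences were -0.06 ± 0.27 for UC minus CC, 0.35 ± 0.29 for UU minus CC and -0.41 ± 0.29 for UC minus UU, the last of which was 0.0040 once samples poor in epididymal transcripts were left out. The dimmer probe set averaged 438.8 ± 121.4 in UC, 500.0 ± 106.1 in UU and 425.9 ± 204.8 in CC (SD), with differences of 0.21 ± 0.39 for UC minus CC, 0.40 ± 0.42 for UU minus CC and -0.19 ± 0.42 for UC minus UU. Its lowest signal, 87.0, was in CC replicate 2, and without that sample UC minus CC was -0.23 and UU minus CC -0.04. They were -0.36 and -0.07 without the samples low in epididymal markers, and -0.35 and -0.04 without those with Xist signal.

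Fcer1a, the IgE-binding chain of the receptor on mast cells and basophils, had signals of 26.6, 261.1, 43.5, 176.0 and 145.8 in UC, 338.6, 51.5, 432.1 and 323.3 in UU, and 110.8, 16.8, 17.8, 191.5 and 42.3 in CC. UU replicates 1, 3 and 4 were above every other sample, and UU replicate 2 lay among the low ones, so the groups overlapped. UU minus CC was 1.58 ± 0.62, UC minus UU -0.97 ± 0.62 and UC minus CC 0.61 ± 0.58. UC minus UU was -1.46 without the samples low in epididymal markers and -0.49 without those of highest 3'/5' ratio. The mean signal of 155.5 was above only 14.9% of probe sets, and with the larger of the pseudocounts tried UU minus CC was 0.98.

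**Figure D2:**
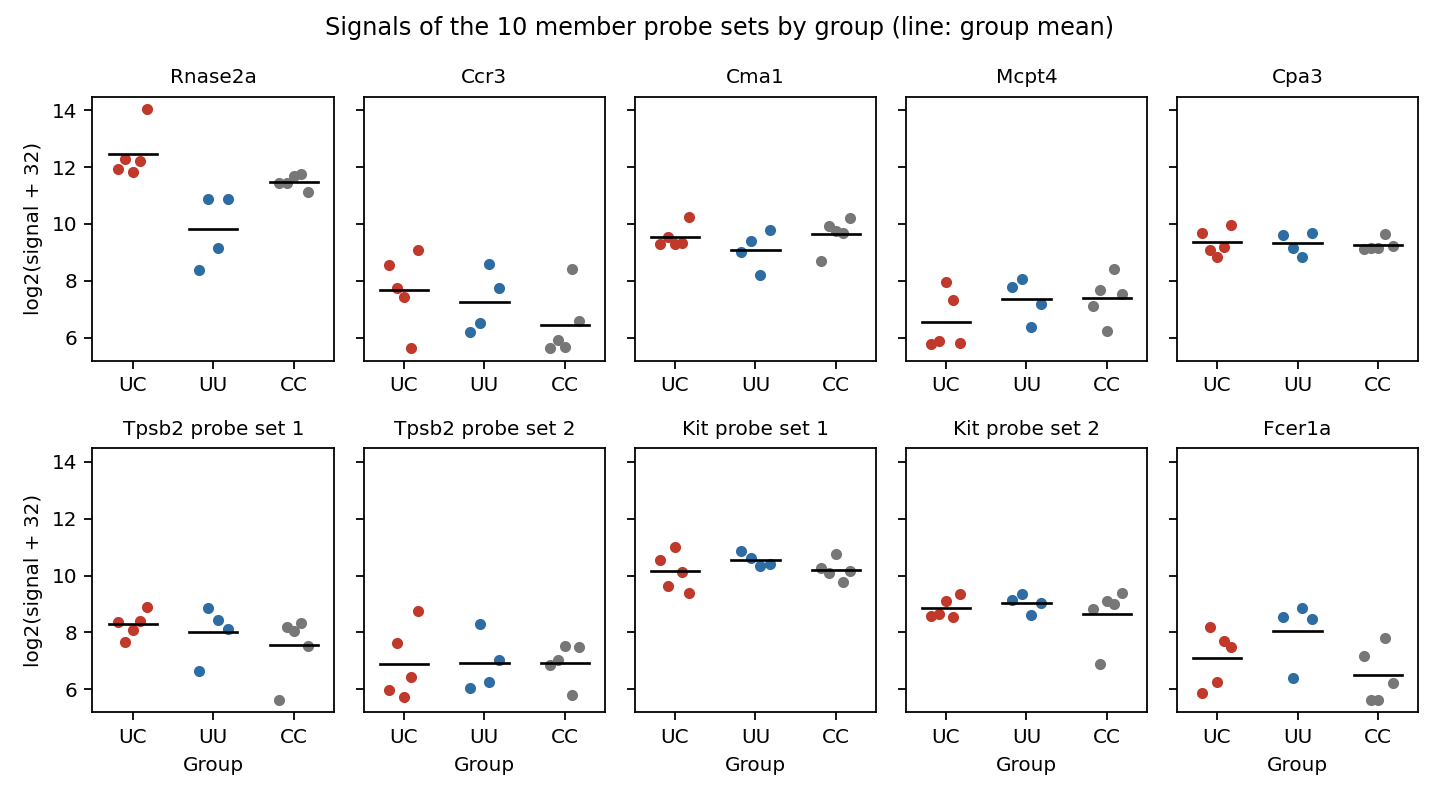
Log2(signal + 32) of the 10 probe sets (vertical axes) in UC, UU and CC, with 1 point per sample and a line at the group mean. Rnase2a separates the groups, with means of 12.47 in UC, 9.82 in UU and 11.49 in CC, while the other 9 probe sets overlap in every comparison.

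Of the 10 probe sets, 1 showed no overlap in each comparison, and it was Rnase2a each time. None separated the groups in the opposite direction, which 0.767% of tested genes did for lower in UC than in CC, 4.68% for higher in UU than in CC and 2.61% for lower in UC than in UU. Differences were above 0 for 6 of 10 in UC minus CC (49.3% of all genes tested), 6 in UU minus CC (55.3%) and 5 in UC minus UU (43.3%). Their medians were 0.16, 0.21 and 0.01, beside medians of -0.0043, 0.05 and -0.06 over all genes tested. Outside Rnase2a, differences ran from -0.84 to 1.24 in UC minus CC, from -0.55 to 1.58 in UU minus CC and from -0.97 to 0.44 in UC minus UU, with SEs of 0.25 to 0.71. Only Rnase2a, Cma1 and Kit were bright enough to be among the genes tested. The shares and medians of genes tested come from brighter genes, each with 1 probe set, and so are not over features like the 10. The highest Rnase2a, Ccr3, Cma1, Cpa3 and Tpsb2 signals of all 14 samples were in UC replicate 5.

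**Figure D3:**
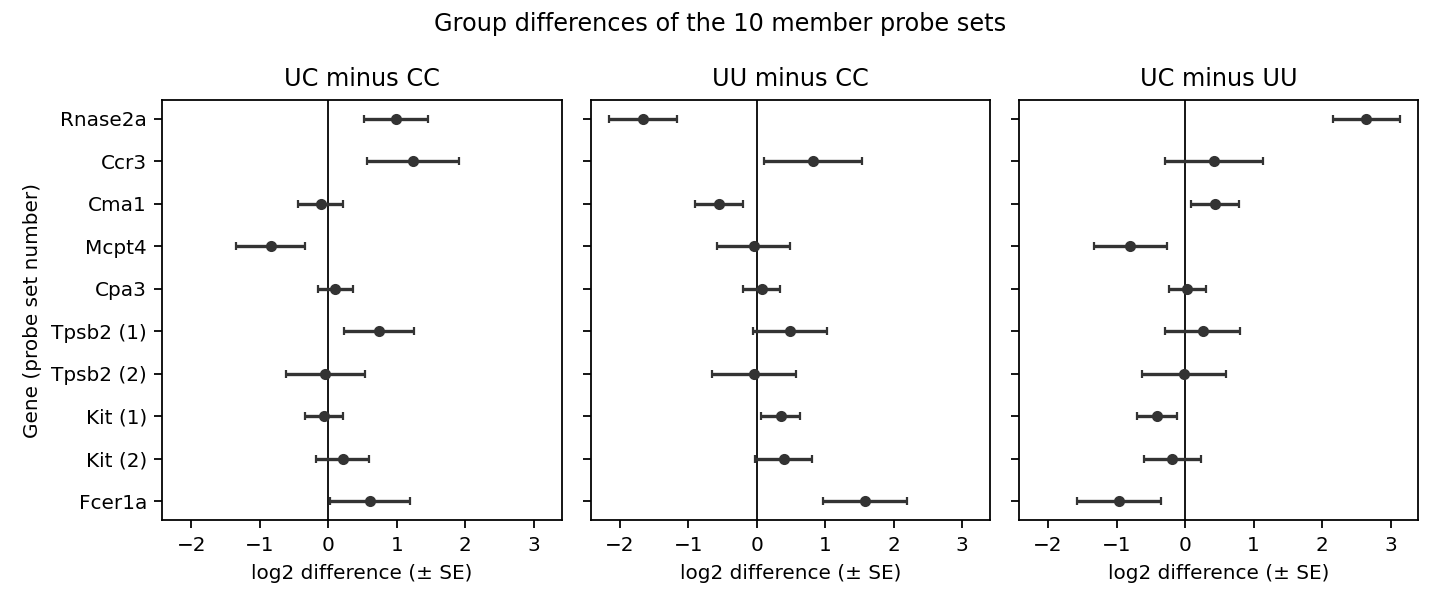
Log2 differences (horizontal axes, points) with their limma standard errors (bars) for the 10 probe sets in UC minus CC, UU minus CC and UC minus UU. Rnase2a stands at 0.98, -1.66 and 2.64, and the farthest from 0 among the others is Fcer1a at 1.58 in UU minus CC.

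Other genes of the 2 cell types were taken from lists written from general knowledge, with earlier results of these data known. Of 12 further eosinophil genes, 8 had a probe set of their own, and 0 were bright enough to be tested. The 8 include Rnase2b, which was used in place of the listed Ear2, and whether these names mean the same gene is uncertain. Each of the 8 had a mean signal below the median probe set. Their brightest were Rnase2b, the near copy of Rnase2a, and Epx, the eosinophil peroxidase. Rnase2b ran from 109.3 to 801.4 in UC, from 33.6 to 364.3 in UU and from 143.1 to 442.5 in CC, overlapping throughout, with its highest value in UC replicate 5. How far probes of one Ear gene read the RNA of its near copies was not tested, so the Rnase2a signal is uncertain to that extent. Epx ran from 36.3 to 251.9 in UC, from 223.3 to 357.9 in UU and from 121.9 to 192.1 in CC. For Epx, UU thus lay above CC without overlap, as in 4.68% of genes tested, the reverse of Rnase2a, at signals below the filter. Siglecf, a surface lectin that defines mouse eosinophils, was at 153.5 or less in UC, 140.8 in UU and 144.0 in CC. The granule gene Prg2 (major basic protein) was at most 224.6, 250.7 and 415.2 in UC, UU and CC, and the interleukin 5 receptor gene Il5ra at most 291.9, 77.4 and 221.1. Il5ra started at 101.5 in CC, so UU lay below CC without overlap, as in 3.63% of genes tested, while UC spanned both. The summed signal of the 8 genes was 682 to 1987 in UC, 900.0 to 1818 in UU and 752 to 1476 in CC. No marker was at 0, but the defining eosinophil genes were dim in all 3 groups and none was ordered UC above CC above UU without overlap as Rnase2a was, although the means of Rnase2b and Prg2 lay in that order, so the label of eosinophil genes rests on known roles and not on these markers. Siglecf, Prg2 and Il5ra were named after their values were seen.

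Of 16 further mast cell genes, 11 had a probe set and 4 were tested. The brightest were Srgn, the core protein of granule proteoglycan in many blood cells, and Gata2, a transcription factor of mast cells and of vessel and stromal cells. Srgn averaged 4660.8 ± 560.3 in UC, 4260.6 ± 1226.9 in UU and 5102.2 ± 1544.0 in CC, and Gata2 1835.3 ± 620.6, 2553.7 ± 386.7 and 1777.8 ± 267.1 (SD). Gata2 was 0.51 ± 0.23 higher in UU than in CC (limma adjusted p = 0.286) and lower in UC than in UU (-0.53 ± 0.23, adjusted p = 0.244). It was 1 of 4 tested genes at an unadjusted p under 0.05 in these comparisons, where 8.57% of all genes were at that p and higher in UU than in CC and 8.8% at that p and lower in UC than in UU. No gene of the list was called in any comparison, and the list's median differences were -0.01 in UC minus CC, 0.15 in UU minus CC and -0.14 in UC minus UU.

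Hdc, histidine decarboxylase, which makes histamine, was below the signal filter, and it is named after its values were seen. It ran from 43.2 to 980.8 in UC, from 680.9 to 1361.4 in UU and from 155.8 to 495.6 in CC. For Hdc, UU thus again lay above CC without overlap, as in 4.68% of genes tested. Tpsg1, also of the mast cell list, did the same at signals below the filter, and is likewise named after its values were seen. It ran from 57.2 to 412.0 in UC, from 230.8 to 470.5 in UU and from 90.3 to 218.3 in CC. The other genes of that list on the array overlapped between UU and CC. The basophil list had 1 of 3 genes on the array, Mcpt8, at most 307.2 in UC, 334.3 in UU and 158.3 in CC.

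Ligands that recruit or sustain these cells did not pass the test either. Of 13, all had a probe set and 3 were tested. Il33, an alarmin of stromal cells, and Ccl8, a ligand of chemokine receptors, were the brightest, at 1495.4 ± 465.5 and 1753.1 ± 1143.6 in UC, 1888.2 ± 372.1 and 1278.8 ± 344.9 in UU, and 1754.7 ± 620.7 and 1341.2 ± 691.6 in CC. The third was Ccl11, eotaxin, with 1557.6 ± 618.9 in UC, 776.9 ± 178.9 in UU and 1232.6 ± 421.0 in CC, and UC minus UU of 0.91 ± 0.29 (limma adjusted p = 0.141). Ccl11 was the 1 tested ligand at an unadjusted p under 0.05 and higher in UC than in UU, against 9.24% of all genes. Kitl, the KIT ligand, was nearly level, at 4092.1 ± 685.7 in UC, 4061.4 ± 665.9 in UU and 3836.9 ± 834.5 in CC.

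IgE receptor signalling was measured by 12 of 13 listed genes, of which 6 were tested and 0 called. The brightest were Plcg2, a phospholipase, and Fyn, a Src family kinase, with UC minus UU of -0.50 ± 0.26 and 0.35 ± 0.19. Fcer1g, the signalling chain that Fc receptors of mast cells, macrophages and other leukocytes share, had UC minus UU of 1.58 ± 0.36 (limma adjusted p = 0.0522) and UU minus CC of -1.28 ± 0.36 (adjusted p = 0.145), and was named after its values were seen, as was the kinase gene Syk, with 1.01 ± 0.34 and -1.33 ± 0.34. These 2 of the 6 tested genes were at an unadjusted p under 0.05, higher in UC than in UU (background 9.24%) and lower in UU than in CC (7.75%), while 3 of the 6 differed in the opposite direction in each comparison. The mean signals of Fcer1g were 1260.1 ± 346.1 in UC, 453.0 ± 266.1 in UU and 1008.7 ± 229.8 in CC. Of the 8 genes of eicosanoid and histamine synthesis, 6 were on the array, 2 were tested and 0 called. The brightest, Alox5ap and Ltc4s of the leukotriene pathway, had UU minus CC of -1.06 ± 0.32 and -0.64 ± 0.29, both at an unadjusted p under 0.05 on the lower side, where 7.75% of all genes stood.

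Macrophage markers had negative differences in UU minus CC, though 0 of them passed the adjusted test there. Of 14 markers, 12 were tested. Since this list too was written with earlier results of these data known, its counts are descriptions. All 12 were below 0 in UU minus CC, 10 of them at an unadjusted p under 0.05 (background 7.75%), with a smallest adjusted p of 0.0975 for Retnla, and all 12 were above 0 in UC minus UU, 10 at that p (background 9.24%). In UC minus CC 5 were above 0 and 7 below, and 0 were at that p (background 4.8% higher and 3.99% lower). Retnla and Mrc1, products of alternatively activated macrophages, were called in UC minus UU, with log2 differences of 2.72 ± 0.43 (limma adjusted p = 0.0279) and 1.17 ± 0.21 (adjusted p = 0.0307). The call of these genes depended on which arrays entered, since limma called 0 genes in this comparison without UC replicate 2, 4 or 5 or UU replicate 1. The smallest limma adjusted p was then 0.0507 without UC replicate 5 and 0.0956 without UU replicate 1. Retnla averaged 33323.8 ± 17041.1 in UC, 5161.9 ± 3132.9 in UU and 25359.2 ± 14255.1 in CC, and Csf1r, the other brightest marker, 28372.6 ± 9351.7, 11873.3 ± 4837.8 and 21781.4 ± 9948.9 (SD). The summed signal of the 14 markers was 54282 to 158266 in UC, 21298 to 42804 in UU and 50509 to 131336 in CC. UC replicate 5, highest in Rnase2a, also had the highest sum, and UU replicate 1, lowest in Rnase2a, the lowest. Adipocyte genes differed in the same directions. Of 5 tested, 4 were below 0 in UU minus CC (median -0.77, 2 at an unadjusted p under 0.05) and 5 above 0 in UC minus UU (median 0.86, 3 at that p), with 0 called. The 5 were Adipoq, Cidec and Lep beside Fabp4 and Lpl, and their summed signal was 239881 to 446128 in UC, 231460.0 to 277437 in UU and 220283 to 361394 in CC. The part of macrophage or adipocyte content in the Rnase2a differences was not tested.

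Within each array, the Rnase2a log2 level minus the mean log2 level of the 14 macrophage markers was 1.0 ± 0.45 in UC, -0.70 ± 0.94 in UU and -0.04 ± 0.56 in CC (SD). It ran from 0.58 to 1.74 in UC, from -1.64 to 0.18 in UU and from -0.88 to 0.56 in CC. On this scale the lowest UC sample, at 0.58, lay barely above the highest CC sample, at 0.56, while UU and CC overlapped. No share over other genes was computed for this scale, so nothing is read from that gap. Against the 6 markers of all leukocytes the values were 2.07 ± 0.70 in UC, -0.45 ± 1.14 in UU and 0.69 ± 0.38 in CC. These leukocyte markers summed to 7044 to 12232 in UC, 6060.0 to 11291 in UU and 9257 to 18289 in CC. Cd52 and Lcp1 were the brightest of them. Cd52 had a UC minus CC of -1.39 ± 0.54 (limma adjusted p = 0.518), against a median of -0.32 over the 5 tested leukocyte markers. It thus widened the gap between UC and CC on the leukocyte scale, and whether its signal came from leukocytes alone was not tested. Markers of lymphocytes (6 on the array, 0 tested) and neutrophils (5 on the array, 2 tested) summed to at most 2096 and 5089 in UC, 1594 and 2948 in UU, and 1906 and 3706 in CC.

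**Figure D4:**
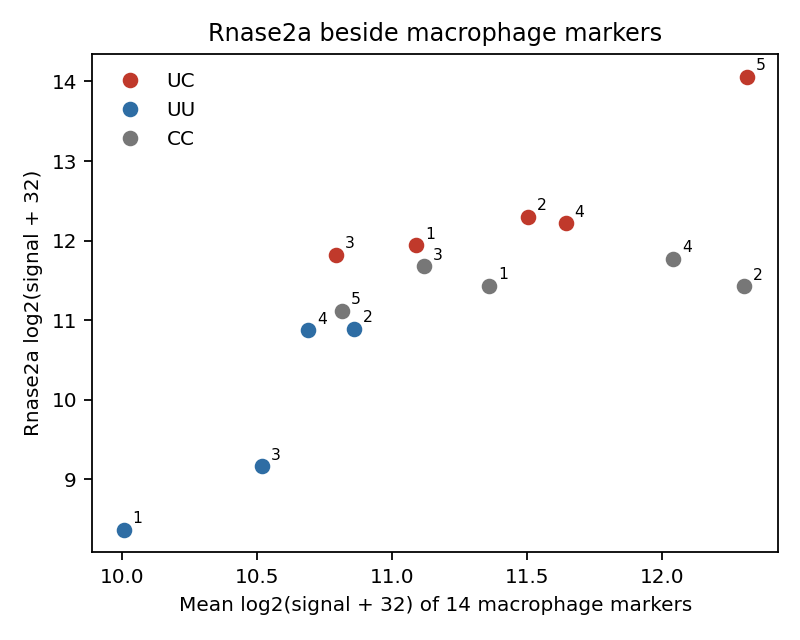
Rnase2a log2(signal + 32) (vertical axis) against the mean log2(signal + 32) of 14 macrophage markers (horizontal axis), with 1 point per sample, numbered by replicate, in UC, UU and CC. The 4 UU samples lie at the lower left, and UC replicate 5 at the upper right reaches 14.06.

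The genes whose sample-to-sample pattern was most like that of Rnase2a were found from deviations from group means over the 14 arrays, as a description. They were Fem1a (Pearson r 0.89, Spearman 0.89), the collagen VI gene Col6a3 (0.88 and 0.83), the C-type lectin gene Cd209g (0.86 and 0.77), the complement gene C1qc (0.86 and 0.77) and Clec14a, an endothelial lectin gene (0.85 and 0.70). Without UC replicate 5 their Pearson values were 0.84, 0.89, 0.81, 0.79 and 0.78. Of these, C1qc was in the macrophage list, and it averaged 3134.2 ± 2039.3 in UC, 1355.9 ± 625.4 in UU and 3147.0 ± 1078.5 in CC. The genes most like Cpa3 were Sclt1, E2f4, Bcl2l13, Mrgprf and Mdfi, with Pearson r of 0.87, 0.87, 0.86, 0.85 and 0.85. No mast cell gene of the lists was among them. Between the 8 described genes themselves, Pearson r ran from -0.60 (Kit with Fcer1a) to 0.59 over the 28 pairs with a median of 0.06, and the highest was that of Rnase2a with Cma1. The arrays share 1 scaling rule, and the genes named were the closest of 7436.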

How the data were processed

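Expression was measured in epididymal fat of 14 mice (5 UC, 4 UU, 5 CC), with groups and replicate numbers taken from the sample labels. The deposited values are linear intensities; the submitters' processing notes name GCOS 1.3 and MAS5, and scaling to a common trimmed mean was read from the values. The platform annotation gave 1 symbol for 20380 of 22690 probe sets, several for 691 and none for 1555, with 64 controls; 20351 symbols were updated through Entrez identifiers to the RefSeq table of GRCm38.p6. For 12393 genes the probe set of highest mean was used, the scale was log2(value + 32), and 7436 genes stayed once the dimmest 40% had been dropped. One limma 3.58.1 model (R 4.3.3, 11 residual degrees of freedom, mean-variance trend) gave 3 two-sided contrasts, called at a Benjamini-Hochberg adjusted p under 0.05. Differences of the 10 described probe sets come from the same model on all probe sets with no filter. The rule was to name the 8 described, the 2 brightest of each list, called list genes and the 5 most like Rnase2a and Cpa3. It was not followed in full for the lymphocyte, neutrophil, liver, muscle and epididymal lists. Siglecf, Prg2, Il5ra, Hdc, Tpsg1, Fcer1g, Syk and Ear3 were named after their values were seen. Ccl11, Pfkl, Adipoq, Cidec, Lep and the sex-linked genes also fell outside that rule. Members and lists were chosen with earlier results of these data known. Each SE is limma's moderated standard error. Promoters were aligned with Biopython 1.88 and figures drawn with matplotlib 3.10.9. No sample was left out of the main values. Alternatives covered the pseudocount, filter, scaling, probe set rule, variance model, array weights, groups fitted, replicate block, threshold and samples left out.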

Additional observations from a re-analysis of the deposited data

Results flagged for a closer look

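A sample far from the rest of its group in linear signal was found in 4 of 30 sets of values (10 probe sets in 3 groups). Chance would flag about 1 in 20 if the values were normal and independent. Linear signals from shared arrays need not be, so the count is a description. Rnase2a was at 17038.4 in UC replicate 5, and Cma1 at 1182.4 in the same sample. In CC replicate 4, Ccr3 was at 307.9 and Cpa3 at 775.0. Both samples were among those low in epididymal markers, and UC replicate 5 also had Xist signal.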

How the results depend on the processing

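The number of genes called was 0 for UC minus CC in every alternative run. For UU minus CC, where it was 0, it was 1 with no filter, 3 with the dimmest 60% left out, 13 with array weights, 6 at an adjusted p under 0.1, 1 without the samples low in epididymal markers, 1 without those with Xist signal, and 0 to 2 with single samples left out. For UC minus UU, where it was 63, it was 11 with no filter, 100 with median centring (98 higher, against 54 of 63 in the values reported), 40 with the probe sets of a gene averaged, 7 in a fit of 2 groups only and 174 at an adjusted p under 0.1. It was 1 without the samples low in epididymal markers, 3 without those with Xist signal, 0 without the 3 of highest 3'/5' ratio, and 0 to 108 with single samples left out (0 without UC replicate 2, 4 or 5 or UU replicate 1, 8 without UU replicate 2, 14 without CC replicate 1, 21 without UU replicate 4, 28 without UU replicate 3, 96 without UC replicate 3 and 108 without UC replicate 1). The cause was not tested. With the replicate number as a replicate block, UU minus CC gave 6 and UC minus UU 95. The labels do not say what a shared number stands for. Deviations of same-numbered samples correlated from -0.35 to 0.50, above 0.1 in 6 of 13 pairs. Their median was 0.07, against -0.03 between samples of different number and group, so whether the numbers mark a pairing cannot be told. Of 720 alternative differences of the 10 probe sets, 67 changed sign, 0 of them for Rnase2a. Those of Rnase2a ran from 0.57 to 1.24 in UC minus CC, from -2.02 to -1.18 in UU minus CC and from 2.04 to 3.00 in UC minus UU over the fits of genes and of all probe sets, the lowest being that of genes with array weights. Chosen after seeing the data, the count of genes ordered UC above CC above UU was 4 without the samples with Xist signal, 16 without those low in epididymal markers and 4 without UC replicate 5, where fewer samples allow more genes.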

Other observations

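Besides Rnase2a, the liver-type phosphofructokinase gene Pfkl was ordered UC above CC above UU with no overlap. Its signals averaged 5804.9 ± 1107.7 in UC, 2748.7 ± 866.0 in UU and 4049.3 ± 314.3 in CC (SD), with log2 differences of 0.50 ± 0.20 for UC minus CC, -0.61 ± 0.21 for UU minus CC and 1.11 ± 0.21 for UC minus UU. Ear3, another gene of the eosinophil-associated ribonuclease family, was outside the lists and is named after its values were seen. Its probe set was dim, at 234.4, 640.9, 51.0, 365.7 and 496.4 in UC, 23.2, 73.8, 20.6 and 57.1 in UU, and 372.4, 388.8, 174.0, 587.7 and 122.3 in CC. Every UU sample was below every CC sample, as in 3.63% of genes tested, at signals below the filter. UC replicate 3 fell inside the UU range. The family's members are similar in sequence, so signal of one may reach the probes of another, which was not tested.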
